A study of Mus musculus with 6 samples.

Results

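Collagens are the triple-helical proteins of the extracellular matrix, and every symbol in the deposited feature lists made of Col, a number, the letter a and a number was taken as a member, which gave 44 genes of 32285. Col4a3bp carries a further suffix and was left out by that rule. Single cells came from mouse colon tumours dissociated with Collagenase Type 1 and DNase and sorted as 7-AAD-negative, EpCAM-negative and CD45-positive. There were 6 droplet libraries, 1 each of Control and SOX17KO tumours in each of 3 collections: 1 with no time label (called untimed here), 1 week, and 2 weeks. Each condition was a pool of tumours from 5 mice, so a library is 1 replicate and no spread between mice can be seen. The labels do not say which cells carry the SOX17 deletion, what age or strain the mice were, or from when the weeks were counted, and the sort discards EpCAM-positive tumour cells. The targeted gene could therefore not check the labels here. Sox17 had 7, 9 and 10 UMIs in the Control libraries and 4, 20 and 3 in the SOX17KO libraries (untimed, 1 week and 2 weeks), and 29 of these 53 UMIs were in endothelial cells, which normally express it.

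A collagen molecule is 3 chains wound around each other. Fibrillar collagens form the load-bearing fibres of connective tissue, fibril-associated collagens sit on their surface, collagen IV builds the sheet of basement membranes, and collagen VI forms beaded filaments around cells. Chains are hydroxylated and folded in the endoplasmic reticulum, trimmed outside the cell and cross-linked by lysyl oxidases. In colon tumours fibroblasts are the best known source of fibrillar collagen mRNA, and endothelial cells and pericytes of collagen IV.

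After filtering, 32167 of 34607 barcodes were kept, from 2933 to 6860 per library, with median depths of 3042 to 5932.5 UMIs (unique molecular identifiers, each standing for 1 captured transcript). Each library shared 35 to 49 barcodes with the others. Cells were assigned to classes by counting how many of 8 marker genes per class had a UMI, with no collagen on any marker list. The gate took 334 fibroblasts, 3152 macrophages, 6177 monocytes, 1798 neutrophils, 698 dendritic cells, 10275 T cells, 775 NK cells and innate lymphoid cells (ILC), 686 B cells, 302 plasmacytoid dendritic cells and 45 endothelial cells. The 8 fibroblast gate markers had a UMI in 56% (Islr) to 99.7% (Dcn) of fibroblasts, with Dpt at 95.8% and Pdgfra at 87.1%. These shares are set in part by the gate and are not independent of it. The fibroblasts went against the sort label: a UMI of Ptprc, which encodes CD45, was found in 4.49% of them and in 88.7% of macrophages. They passed a sort meant to remove them, so their number per library (2, 53, 81, 137, 22 and 39, in the order untimed Control, untimed SOX17KO, 1 week Control, 1 week SOX17KO, 2 weeks Control, 2 weeks SOX17KO) is set in part by the sort and is not a measure of the tumour. The untimed Control library, with 2 fibroblasts and 5 macrophages, was left out of the comparisons of those classes.

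A total of 251471 collagen UMIs were counted in kept cells, and 43 of 44 genes had at least 1; Col9a2, a chain of cartilage collagen IX, had 0. The gated fibroblasts, 334 of 32167 cells, held 49.4% of all collagen UMIs. Another 282 cells had fibroblast markers as their leading list but were refused by the gate because a second list came too close, and these mixed cells held 40.9%. The monocyte list contains Fn1, Vcan and Plac8, which had a UMI in 70.1%, 74.6% and 69.2% of gated fibroblasts and in 89.4%, 85.8% and 92.9% of mixed cells. Ptprc was found in 35.5% of mixed cells, so they were kept apart from the gated fibroblasts. T cells, 10275 in number, held 0.4657%, endothelial cells 0.8422%, and macrophages 0.1964% of collagen UMIs. For 11 genes over 90% of UMIs lay in gated fibroblasts or mixed cells. For 13 genes over 50% lay in gated immune cells, and these genes were rare, with at most 212 UMIs each and 1139 together. Gated immune cells were also most of the 32167 kept cells, among them 10275 T cells and 6177 monocytes. A share over 50% therefore does not by itself mark a gene as higher in immune cells.

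In gated fibroblasts collagens made up 2.054% of UMIs in the untimed SOX17KO library, 3.105% and 3.071% at 1 week (Control, SOX17KO), and 4.632% and 4.582% at 2 weeks. The mean was 3.489% ± 1.105 (SD, n = 5 libraries). The libraries of a week lay close together and the weeks did not overlap. The untimed SOX17KO fibroblasts were also shallower, with 3002 UMIs in the median cell against 8151.5 to 11294 in the other 4 libraries, and whether depth has a part in their lower share was not tested. In macrophages of the same libraries collagens were 81.07 CPM (UMIs scaled to an equal total in every class and library) in the untimed SOX17KO library, resting on 13 UMIs, and 23.36, 24.16, 15.95 and 19.76 CPM in the 1-week and 2-week libraries (Control, SOX17KO at each week). The lowest fibroblast level, 20540 CPM in the untimed SOX17KO library, stood far above the highest macrophage level.

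**Figure D1:**
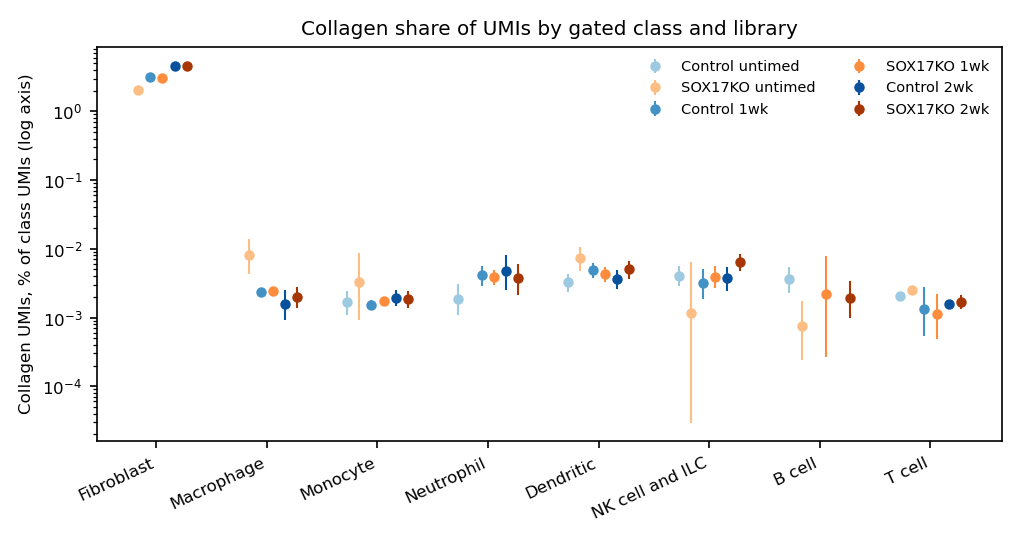
Collagen UMIs as a percent of all UMIs of a class (vertical log axis) for 8 gated classes and each library with at least 20 cells of the class (points; bars are exact Poisson 95% intervals, which cover counting error only). Fibroblasts sit between 2.054% and 4.632%, and no point of the immune classes shown reaches 0.01%.

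Fibrillar collagens led in fibroblasts. Chains of this family held 81.5% ± 2.19 (SD, n = 5 libraries) of fibroblast collagen UMIs, against 10.5% ± 2.3 for the beaded-filament chains, 2.84% for basement membrane chains, 2.6% for fibril-associated chains, 1.28% for short-chain network collagens and 1.1% for the multiplexins Col15a1 and Col18a1. UMIs are counted at the 3′ end of a transcript, so CPM was compared between genes with no division by length.

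Col3a1, the homotrimeric collagen III of reticular fibres (chr1:45311538-45349706, + strand), was the highest collagen, at 5703, 9208, 10150, 13760 and 12940 CPM in the fibroblasts of untimed SOX17KO, 1 week Control, 1 week SOX17KO, 2 weeks Control and 2 weeks SOX17KO. Col1a1 (chr11:94936224-94953042, + strand) and Col1a2 (chr6:4504814-4541544, + strand), whose products join as 2 chains to 1 in collagen I, had means of 7551 ± 2704 and 7428 ± 2223 CPM (SD, n = 5). All 3 were lowest in the untimed SOX17KO library and highest at 2 weeks. A UMI of Col1a2 was found in 100% of fibroblasts in every library, and of Col1a1 in 90.9% to 100%. The 2 collagen I chains stayed near equal, with 0.989 Col1a2 UMIs per Col1a1 UMI (95% interval 0.972 to 1.01) in gated fibroblasts and 0.952 (0.935 to 0.97) in mixed cells. Col3a1 per Col1a1 was 1.43 (1.41 to 1.45) in gated fibroblasts and 1.21 (1.19 to 1.23) in mixed cells. These intervals cover counting error only.

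The promoters of Col3a1 and Col1a2, the genes among these 3 with an entry in the RefSeq table (build GRCm38.p6; 250 bases before to 50 after the start annotated by RefSeq, which for Col1a2 lies downstream of the gene start given above) differ in composition, and they are shown because these genes led the collagens of fibroblasts. Capitals mark matches on either strand to the TATA box motif, searched as TATAAA. They also mark the CCAAT box, which is searched by those letters, and the GC box core that Sp1-type factors are known to bind, searched as GGGCGG; the motifs did not overlap in the windows shown.
Col3a1, chr1:45311288-45311587, + strand: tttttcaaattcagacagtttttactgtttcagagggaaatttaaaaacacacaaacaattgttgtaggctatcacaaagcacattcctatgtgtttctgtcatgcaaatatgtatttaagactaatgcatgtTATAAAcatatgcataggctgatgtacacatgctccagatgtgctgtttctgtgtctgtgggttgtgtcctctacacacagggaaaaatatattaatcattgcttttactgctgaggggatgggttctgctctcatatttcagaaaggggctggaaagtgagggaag
Col1a2, chr6:4505368-4505667, + strand: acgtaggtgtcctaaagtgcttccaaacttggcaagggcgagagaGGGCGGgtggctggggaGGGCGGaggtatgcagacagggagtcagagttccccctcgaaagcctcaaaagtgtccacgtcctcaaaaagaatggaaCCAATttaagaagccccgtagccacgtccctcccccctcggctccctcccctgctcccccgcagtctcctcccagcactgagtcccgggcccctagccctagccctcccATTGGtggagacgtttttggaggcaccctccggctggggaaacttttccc
The Col3a1 window was 37.7% G or C and held 1 TATA motif and neither of the others, whereas the Col1a2 window was 61% G or C and held 2 CCAAT boxes and 2 GC boxes. The TATA motif was in 13.6%, the CCAAT box in 37.4% and the GC box in 35.7% of all 32851 windows of the table, and in 13.2%, 34.2% and 60.5% of the 38 windows that 35 collagen symbols matched. A match is a run of letters and not a bound site.

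Among the minor fibrillar chains, Col5a2 and Col5a1, which make the collagen V that sets fibril diameter, had 1877 ± 656.2 and 793.6 ± 272.2 CPM (SD, n = 5), and Col5a3 had 284.3 ± 153.8. Col5a3 ranged from 86.68 CPM in the untimed SOX17KO library to 501.9 in the 2-week Control library. Col27a1, Col24a1 and Col11a1 were lower, at means of 117.7, 91.76 and 31.53 CPM, and Col11a2 had 3 UMIs and Col2a1, the main cartilage chain, 0. The beaded-filament chains of collagen VI were Col6a1 at 1349 ± 620.7, Col6a3 at 1104 ± 284.2 and Col6a2 at 1093 ± 605.7 CPM, and the alternative chains Col6a5, Col6a6 and Col6a4 at 162.2, 18.08 and 1.952 CPM. Of the fibril-associated chains Col14a1 had 447.5 ± 126.7 CPM, Col12a1 272.9 ± 107.7 and Col16a1 141.1 ± 54.4. Col8a1, a short chain of vessel-wall and injury matrices, had 384.6 ± 193.5 CPM and its partner Col8a2 4 UMIs in all. Col15a1, which links basement membranes to the stroma, had 331.4 ± 203.5 CPM. Fibroblasts had no UMI of 7 members: Col9a2, and Col19a1, Col10a1, Col17a1, Col2a1, Col26a1 and Col9a1.

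**Figure D2:**
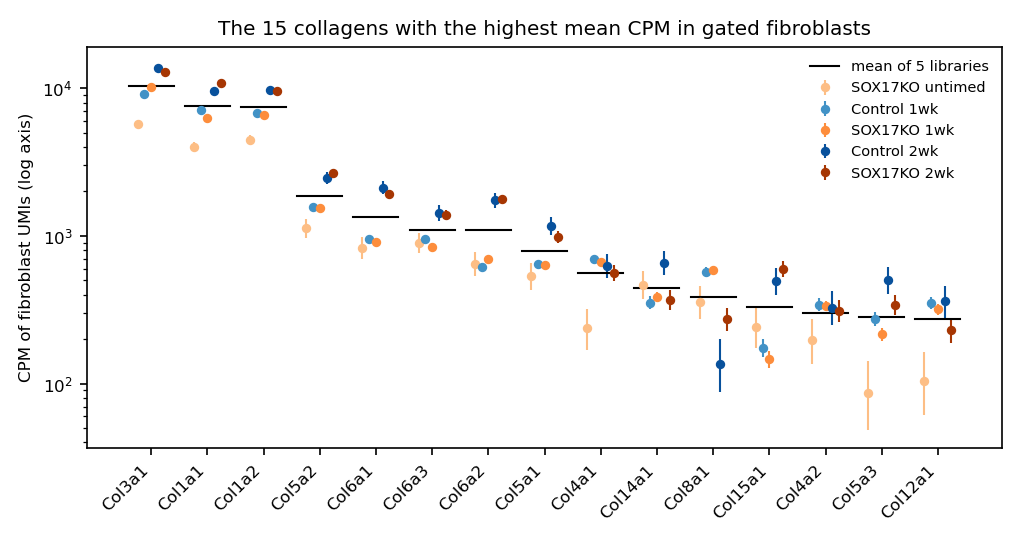
CPM of fibroblast UMIs (vertical log axis) for the 15 collagens with the highest mean in gated fibroblasts, in the 5 libraries with at least 20 fibroblasts (points with exact Poisson 95% intervals; black lines are means). Most genes are lowest in the untimed SOX17KO library, while Col8a1 is lowest in the 2-week Control library.

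Some neighbours in this order overlapped in their ranges over libraries. Col1a1 and Col1a2 changed places between libraries, and Col6a3 changed places with both Col6a1 and Col6a2, whereas Col6a1 was above Col6a2 in 5 of 5 libraries. Col4a1 (558.3 ± 186.7) overlapped Col14a1. The steps from Col1a2 to Col5a2 and from Col5a1 to Col4a2 (302.4 ± 60.38) separate the ranges of all 5 libraries.

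Tested per library against macrophages, all 21 collagens that passed the expression filter were called higher in fibroblasts (edgeR quasi-likelihood test, Benjamini-Hochberg adjusted over 8932 genes, 5 libraries as blocks). For the background, 29.7% of all genes tested were called higher. The other 23 collagens did not pass the filter, and passing it depended on the fibroblast level. The direction of the 21 was therefore largely set in advance, and the count says nothing about the other 23. The log2 differences ran from 6.23 for Col14a1 to 12.35 for Col8a1, with a median of 10.86 beside -0.00377 for all genes. Col3a1 was higher by 11.33 ± 0.30 (SE; adjusted p = 1.01e-11) and Col5a2 by 12.08 ± 0.32 (adjusted p = 1.02e-11), both in 5 of 5 libraries. Col24a1 had 0 UMIs in macrophages and 11.56 to 235.9 CPM in fibroblasts, the lowest of these from 2 UMIs; no fold is given for it, and the median was 10.86 as well with Col24a1 at the bound that 3 macrophage counts allow.

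Genes from lists of collagen partners were tested in the same fit, where 29.7% of all genes were called higher and 28.6% lower. Genes near 0 in macrophages, such as Pcolce (0.1105 CPM) and Bmp1 (0.1723 CPM), could pass the filter only through fibroblasts. Lair1, at 0 in fibroblasts, could pass only through macrophages. The direction of such genes was fixed by the filter, so the counts below describe the genes tested and are not a test of the lists. Of 19 genes for procollagen folding and modification, 18 were tested, 14 were called higher in fibroblasts and 1, Tmem38b, lower. Serpinh1, the collagen chaperone HSP47, had a mean of 939.9 CPM in fibroblasts and 0.5259 in macrophages (log2 difference 10.31 ± 0.35, adjusted p = 1.42e-11), whereas P4hb and Ppib, which fold many secreted proteins, differed by 0.81 and 1.21. P4ha1, a prolyl hydroxylase subunit, did not pass the test (0.59 ± 0.26, adjusted p = 0.0633). All 10 tested of 13 trimming and cross-linking genes were higher, among them the lysyl oxidase Lox (762.9 CPM, log2 difference 10.15) and the proteinase enhancer Pcolce (378.1 CPM, 10.48). Of 9 breakdown genes 6 were tested, 5 were higher, including Mmp2, Mmp14 and the endocytic collagen receptor Mrc2, and the collagenase Mmp13 was lower, at 0.1719 CPM in fibroblasts and 64.71 in macrophages. Of 10 receptor genes 5 were tested: Ddr2, Itgb1 and Itga1 were higher, and Mrc1 and the inhibitory collagen receptor Lair1 lower, Lair1 with 0 UMIs in fibroblasts and 258.1 CPM in macrophages. All 12 tested of 13 fibril partners and other matrix genes were higher, including Sparc and Postn, but Dcn and Lum were gate markers for fibroblasts and Fn1 and Vcan for monocytes, so those 4 are not independent of the gate.

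Endothelial cells had a different makeup from fibroblasts. The 45 endothelial cells held 1052 Col4a1 and 499 Col4a2 UMIs, and basement membrane chains made up 73.5% of their 2118 collagen UMIs and the multiplexins 20.5% (225 Col15a1 and 209 Col18a1). Col1a1, Col1a2 and Col3a1 together had 2 UMIs in them, 0.0944% of endothelial collagen UMIs (Clopper-Pearson 95% interval 0.0114% to 0.341%), against 74% (73.8% to 74.3%) in fibroblasts. No library had 20 endothelial cells, so their levels were not compared between conditions. Fibroblasts, with 334 cells against 45, held more Col4a1 UMIs, 2396 of 6694 in kept cells. Gated fibroblasts and mixed cells together held 68.5%. By level, Col4a1 was higher in endothelial cells, at 722.8 to 4012 CPM in libraries with 4 to 16 of them. In fibroblasts it was at 236.9 to 697 CPM.

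Col4a1 and Col4a2 make the ubiquitous 2-to-1 collagen IV trimer from genes that lie head to head on chromosome 8 (Col4a1 at chr8:11198423-11312826, - strand; Col4a2 at chr8:11312805-11449287, + strand). Their gene models overlap by 22 bases, and no source used here states whether counting was stranded. The annotated starts lie 21 bases apart, so both promoter windows, shown because of this arrangement, share 78 bases.
Col4a1, chr8:11312777-11313076, - strand: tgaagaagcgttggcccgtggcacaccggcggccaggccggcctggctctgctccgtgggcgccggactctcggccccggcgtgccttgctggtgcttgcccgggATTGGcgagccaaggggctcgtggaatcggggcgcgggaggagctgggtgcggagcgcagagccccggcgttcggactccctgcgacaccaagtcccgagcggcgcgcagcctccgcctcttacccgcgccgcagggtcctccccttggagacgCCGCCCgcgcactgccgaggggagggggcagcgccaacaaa
Col4a2, chr8:11312555-11312854, + strand: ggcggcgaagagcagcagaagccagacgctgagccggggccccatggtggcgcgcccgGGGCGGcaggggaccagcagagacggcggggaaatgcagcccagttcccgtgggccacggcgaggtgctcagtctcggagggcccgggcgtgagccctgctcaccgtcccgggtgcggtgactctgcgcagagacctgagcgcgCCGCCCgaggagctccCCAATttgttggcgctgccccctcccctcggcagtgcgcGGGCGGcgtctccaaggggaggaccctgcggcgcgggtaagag
Both windows were rich in G and C (74% and 73.7%) and held no TATA motif. Col4a1 had 1 CCAAT box and 1 GC box, and Col4a2 had 1 CCAAT box and 3 GC boxes, counted on both strands. The GC box of Col4a1 lies in the 78 shared bases. It is the same site as the last of the 3 in the Col4a2 window, so it is counted for both genes. In UMIs the pair stood at 2396 to 1233 in fibroblasts, 2191 to 1168 in mixed cells and 1052 to 499 in endothelial cells.

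**Figure D3:**
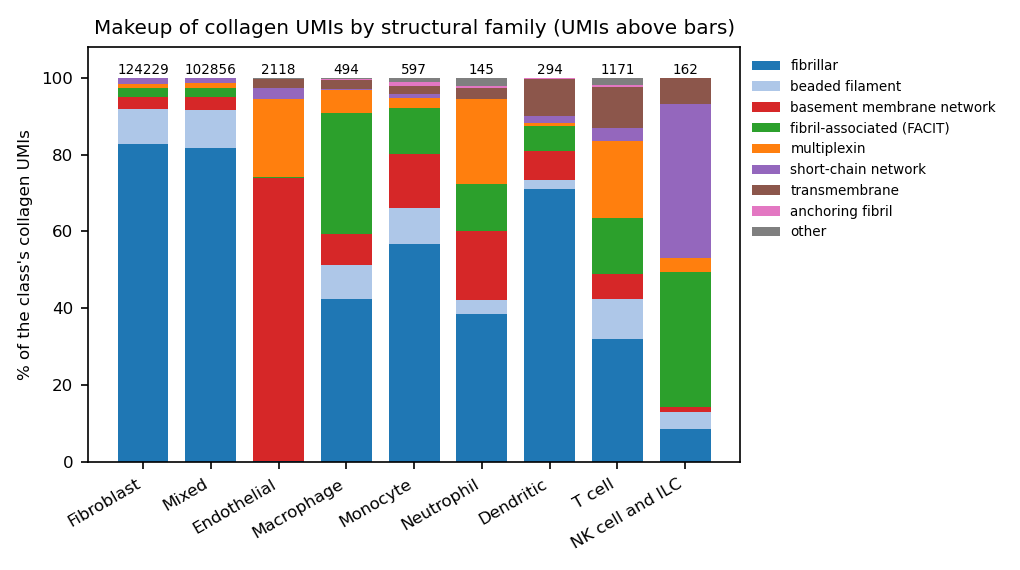
Share of each class's collagen UMIs by structural family (vertical axis, percent; stacked bars; the number above each bar is the class's collagen UMIs, all libraries pooled). Fibrillar chains make up 82.8% in fibroblasts, basement membrane chains 73.5% in endothelial cells, and the short-chain and fibril-associated families 40.1% and 35.2% in NK cells and ILC.

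In immune cells collagen UMIs were sparse. Collagens were at 17.16 ± 5.169 CPM in T cells (SD, n = 6 libraries), 20.11 ± 6.633 in monocytes, 36.74 ± 10.77 in neutrophils (n = 5), 37.46 ± 16.75 in NK cells and ILC, 47.22 ± 14.39 in dendritic cells and 32.86 ± 27.15 in macrophages (n = 5). Without the untimed SOX17KO library the macrophage mean was 20.81 CPM. Free RNA in the droplets gives UMIs in cells that do not express a gene, so T cells, which should lack fibrillar collagen mRNA, serve as the background. After thinning every cell to 1000 UMIs, Col1a1, Col1a2 or Col3a1 was seen in 0% to 1.23% of macrophages and 0% to 1.28% of T cells, over the libraries with at least 20 cells (before thinning 1.78% to 5.62% and 0.756% to 3.85%). In the same 5 libraries the thinned shares were 0%, 0.88%, 1.23%, 0% and 0.968% in macrophages and 0.323%, 1.28%, 0%, 0.268% and 0.441% in T cells (untimed SOX17KO, 1 week Control, 1 week SOX17KO, 2 weeks Control, 2 weeks SOX17KO). Neither class was higher throughout, the T-cell maximum rests on 78 cells, and free RNA and expression cannot be told apart at this level. Pooled over all libraries, Col1a1, Col1a2 and Col3a1 held 74% of collagen UMIs in fibroblasts, 41.9% in monocytes and 32% in macrophages. They held 20.9% in T cells, 10.9% in dendritic cells and 8.02% in NK cells and ILC. Of 10275 T cells, 3411 and 4098 were in the untimed Control and SOX17KO libraries. Of 3152 macrophages, 1158 and 1335 were in the 1-week Control and SOX17KO libraries. Class and library therefore cannot be told apart in the pooled shares of the immune classes.

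Each immune class was tested against the other gated immune cells of the same library. Collagens were called higher in 3 classes. Dendritic cells carried Col27a1, a fibrillar chain of cartilage and other tissues, NK cells and ILC carried Col8a2, and neutrophils carried Col15a1 and Col4a2. Only 2 to 6 collagens passed the filter in each comparison, so most members were not tested there. A collagen rare in the other immune cells could pass only through the class where it was high. Col8a2, for example, had 64 UMIs in NK cells and ILC and 27 in all T cells. The number called of those tested is therefore not comparable with the share of all genes called.

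Col27a1 in dendritic cells was at 26.73, 23.35, 15.37, 22.4, 20.92 and 23.38 CPM (untimed Control, untimed SOX17KO, 1 week Control, 1 week SOX17KO, 2 weeks Control, 2 weeks SOX17KO). In T cells it was at 1.544, 0.7637, 0, 0, 0.6251 and 0 CPM, so the classes did not overlap. The log2 difference from the other immune cells was 4.90 ± 0.26 (SE; edgeR adjusted p = 1.1e-05, higher in 6 of 6 libraries). Col27a1 was 1 of 3 collagens tested in dendritic cells, where 13.9% of all genes were called higher. A UMI was found in 82 of 698 dendritic cells (11.7%), in 11 of 3152 macrophages, in 29 of 6177 monocytes, in 48 of 10275 T cells and in none of 302 plasmacytoid dendritic cells. B cells had one in 9 of 686 (1.31%), and their difference from the other immune cells did not pass (1.38 ± 0.67, adjusted p = 0.152). Fibroblasts had 69.34 to 196.4 CPM of Col27a1. In T cells Col27a1 was called lower than in the other immune cells (-3.10 ± 0.42, adjusted p = 0.000499; 27.6% of all genes called lower), a contrast that contains the dendritic cells.

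Col8a2 in NK cells and ILC was at 19.77, 11.5, 17.07, 9.194, 12.9 and 25.23 CPM in the same library order, from 17, 1, 9, 7, 9 and 21 UMIs. Its log2 difference from the other immune cells was 5.94 ± 0.47 (adjusted p = 2.18e-05, higher in 6 of 6 libraries; 1 of 2 collagens tested, with 7.9% of all genes called higher). It had a UMI in 57 of 775 cells of the class, in 25 of 10275 T cells, and in no macrophage, monocyte or neutrophil. Fibroblasts had only 4 UMIs of Col8a2 and 1974 of its partner Col8a1. The same class had 40 UMIs of Col19a1, a fibril-associated chain, of 66 in all kept cells; Col19a1 did not pass the filter, and without the filter it was called (log2 5.68 ± 0.68, adjusted p = 0.00015). It was at 0 in 2 of the 6 libraries.

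In neutrophils Col15a1 was at 4.702, 11.44, 4.287, 18.32 and 14.05 CPM (untimed Control, 1 week Control, 1 week SOX17KO, 2 weeks Control, 2 weeks SOX17KO), from 4 to 10 UMIs each. Its log2 difference was 4.06 ± 0.44 (adjusted p = 4.94e-05), and that of Col4a2 was 4.03 ± 0.67 (adjusted p = 0.00084), both higher in 5 of 5 libraries; 20% of all genes were called higher. Of the other 3 collagens tested, Col1a1 and Col1a2 were at 1.28 and 1.41 with adjusted p = 0.088 and 0.0815, and Col3a1 at 0.73. Neutrophils had medians of 1297 to 2141.5 UMIs per cell in these libraries, and the part of depth in these values was not tested. Plasmacytoid dendritic cells had 6 Col15a1 UMIs in the untimed Control library (5.68 CPM), above the neutrophil level there. In UMIs, neutrophils had 32 Col15a1 and 12 Col1a1 UMIs, and fibroblasts 867 and 26895. Neutrophils had 5 UMIs of Col4a1 against 18 of Col4a2.

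Macrophages had no collagen called among 6 tested (11.6% of all genes called; 1 collagen at an unadjusted p under 0.05, Col27a1 at -1.72, on the lower side). Col14a1, which decorates fibrils, nevertheless led their collagen UMIs with 118, against 2 in monocytes and 13 in T cells. It did not pass the filter in that comparison; without the filter it was called (log2 5.80 ± 0.62, adjusted p = 0.000826). By library Col14a1 was at 31.18 CPM (5 UMIs) in the untimed SOX17KO macrophages, at 7.659 and 4.752 at 1 week (60 and 48 UMIs) and at 0.9384 and 1.129 at 2 weeks (1 and 2 UMIs). Both 1-week values exceeded both 2-week values, but the difference was not called (-2.46 ± 0.64, adjusted p = 0.0755). Monocytes, B cells and plasmacytoid dendritic cells had no collagen called higher or lower, of 6, 3 and 5 tested, where 41.4%, 29.8% and 24.6% of all genes were called, with 3, 0 and 2 at an unadjusted p under 0.05.

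**Figure D4:**
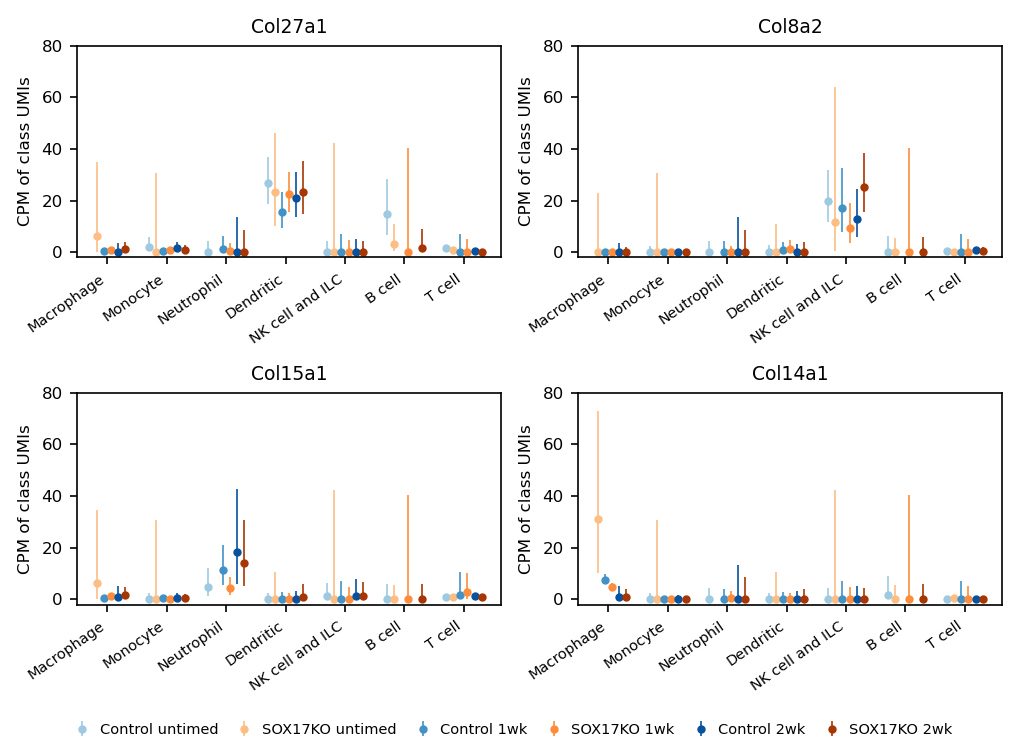
CPM of class UMIs (vertical axis) for Col27a1, Col8a2, Col15a1 and Col14a1 in 7 immune classes, 1 point for each library with at least 20 cells of the class and exact Poisson 95% intervals. Col27a1 stands out in dendritic cells at 15.37 to 26.73 CPM, Col8a2 in NK cells and ILC at 9.194 to 25.23, Col15a1 in neutrophils at 4.287 to 18.32, and Col14a1 in macrophages of the untimed SOX17KO and both 1-week libraries.

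The design also asks whether collagens differ between SOX17KO and Control tumours. No collagen was called in any class tested. In fibroblasts 0 of 23 collagens passed, where 0.308% of 8449 genes did (2 pairs of libraries, 1 residual degree of freedom), and 2 collagens had an unadjusted p under 0.05; DESeq2 called none either. The collagen share was 3.105% in Control and 3.071% in SOX17KO at 1 week, a log2 ratio of -0.0162 (95% counting interval -0.0355 to 0.00313). At 2 weeks it was 4.632% and 4.582%, a log2 ratio of -0.0157 (-0.052 to 0.0208). These intervals do not hold the spread between mice. Of the 23 genes, 11 had an estimate above 0 and 12 below, with a median of -0.0125. The 3 with the lowest p were Col6a5 (-0.99, adjusted p = 0.41), Col18a1 (0.68, adjusted p = 0.915) and Col5a3 (-0.42, adjusted p = 0.999). Col6a5 went 1 way at 1 week (6.876 CPM in Control, 19.04 in SOX17KO) and the other at 2 weeks (507.4 and 98.63). Of the 6 partner lists, 61 tested entries gave 1 call, the stromelysin Mmp3, which was lower in SOX17KO fibroblasts (-1.37 ± 0.32, adjusted p = 0.0108) at 115.2 against 74.99 CPM at 1 week and 163.7 against 19.3 at 2 weeks.

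Over all kept cells, whose makeup differs between libraries, collagens were at 73.77, 2113 and 1359 CPM in Control and 458, 1913 and 2353 CPM in SOX17KO (untimed, 1 week, 2 weeks). The log2 ratios were 2.634, -0.1435 and 0.7926, with a mean of 1.094 ± 1.413 (SD, n = 3 pairs), which did not pass an exact two-sided sign-flip permutation test (p = 0.5; the smallest p that 3 pairs allow is 0.25). Without the untimed pair the mean was 0.325. Gated fibroblasts numbered 2 in Control against 53 in SOX17KO, 81 against 137 and 22 against 39. At 1 week they held 36132 of 72045 collagen UMIs in Control and 53232 of 89047 in SOX17KO. The mixed cells, 69 and 92 in number, held 34343 and 30408 there. The part of either group in these values was not tested. Per gene, 0 of 33 collagens were called, as were 0% of 15761 genes; 31 of the 33 estimates were above 0, with a median of 1.03, and Col23a1 alone had an unadjusted p under 0.05 (1.30, adjusted p = 0.75). No collagen was called in macrophages (0 of 3), dendritic cells (0 of 1) or T cells (0 of 4), where 0% of all genes were called and no collagen had an unadjusted p under 0.05. None could be tested in monocytes. In T cells Col18a1, the endostatin precursor, had 138 UMIs in the untimed Control library (5.917 CPM, in 112 of 3411 cells) and 7 in the untimed SOX17KO library (0.4455 CPM, in 5 of 4098 cells). At 2 weeks it was at 1.797 and 2.604 CPM, so the pairs differed in sign and the test did not pass (-1.66 ± 0.93, adjusted p = 0.636).

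Between the weeks fibroblasts did differ. Of 23 collagens tested, 7 were called (10.1% of 8449 genes were; 4 libraries, genotype as a block, 1 residual degree of freedom), 6 higher at 2 weeks, where 3.61% of all genes were called higher, and 1 lower, where 6.53% were called lower. Of the 23 estimates 19 were above 0 and 4 below, the median was 0.572 beside -0.00766 for all genes, and summed collagens were higher by a log2 ratio of 0.577 in both genotypes. The week and the library preparation cannot be told apart, and the 2-week libraries rest on 22 and 39 fibroblasts. With 1 residual degree of freedom the test takes its spread largely from all genes together. A small p therefore does not show that a gene's own libraries agreed.

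Of the 6 gains 3 were collagen VI chains, Col6a1, Col6a2 and Col6a5, and the rest were Col24a1, Col15a1 and Col7a1. Col6a1 was at 950.5 and 916 CPM at 1 week (Control, SOX17KO) and 2117 and 1930 at 2 weeks (0.97 ± 0.23, adjusted p = 0.000919). Col6a2 was at 611.9 and 694 CPM at 1 week and 1740 and 1771 at 2 weeks (1.29 ± 0.24, adjusted p = 5.38e-06). Neither overlapped between weeks, while Col6a3, which joins them in the common trimer, was at 949.7 and 844.5 against 1435 and 1389 CPM and did not pass (0.52 ± 0.23, adjusted p = 0.146). Col6a5 was at 6.876 and 19.04 CPM at 1 week and 507.4 and 98.63 at 2 weeks (3.88 ± 0.35, adjusted p = 1.72e-24), a difference not called with DESeq2 (adjusted p = 0.0736). In the 2-week Control fibroblasts 1 cell gave 38 of 93 Col6a5 UMIs, and without its UMIs the level was 300.1 CPM. In the mixed cells Col6a5 was at 10.46 and 22.6 CPM at 1 week and 257.9 and 427.5 at 2 weeks, so it was higher at 2 weeks there as well.

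Col15a1 was at 173.6 and 145.9 CPM at 1 week and 496.5 and 598.2 at 2 weeks (1.65 ± 0.28, adjusted p = 4.76e-07), and 1 cell held 86 of the 279 UMIs of the 2-week SOX17KO library. Col24a1, a fibrillar chain best known from bone, was at 36.1 and 33.46 CPM at 1 week and 141.8 and 235.9 at 2 weeks (2.32 ± 0.32, adjusted p = 2.18e-10), with 40 of 110 UMIs of the last library in 1 cell. Both were higher in each genotype. Col7a1, the anchoring fibril collagen, was called (1.70 ± 0.55, adjusted p = 0.0263) but went from 15.47 to 5.456 CPM in Control, the latter from 1 UMI, and from 5.769 to 53.6 CPM in SOX17KO, so its groups overlapped and the call rests on the 25 UMIs of the 2-week SOX17KO library. Col7a1 was not called without the genotype block (adjusted p = 0.122) or without the expression filter (adjusted p = 0.0698). Col8a1 was the 1 collagen called lower, going from 571.5 and 584.3 CPM at 1 week to 136.4 and 272.3 at 2 weeks (-1.65 ± 0.28, edgeR adjusted p = 7.78e-07). In the mixed cells Col8a1 was at 451.6 and 395.1 against 251.3 and 298.8 CPM.

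The main fibrillar chains did not pass: Col1a1 had a log2 difference of 0.47 ± 0.19 (adjusted p = 0.104), Col1a2 0.39 ± 0.19 (adjusted p = 0.203) and Col3a1 0.32 ± 0.19 (adjusted p = 0.295), although all 3 were higher at 2 weeks than at 1 week in both genotypes. Col4a1 and Col4a2 were at -0.34 ± 0.25 and -0.23 ± 0.27 and did not pass. By CPM, 16 of the 23 were higher and 3 lower at 2 weeks in both genotypes, and 4 differed in sign between genotypes.

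**Figure D5:**
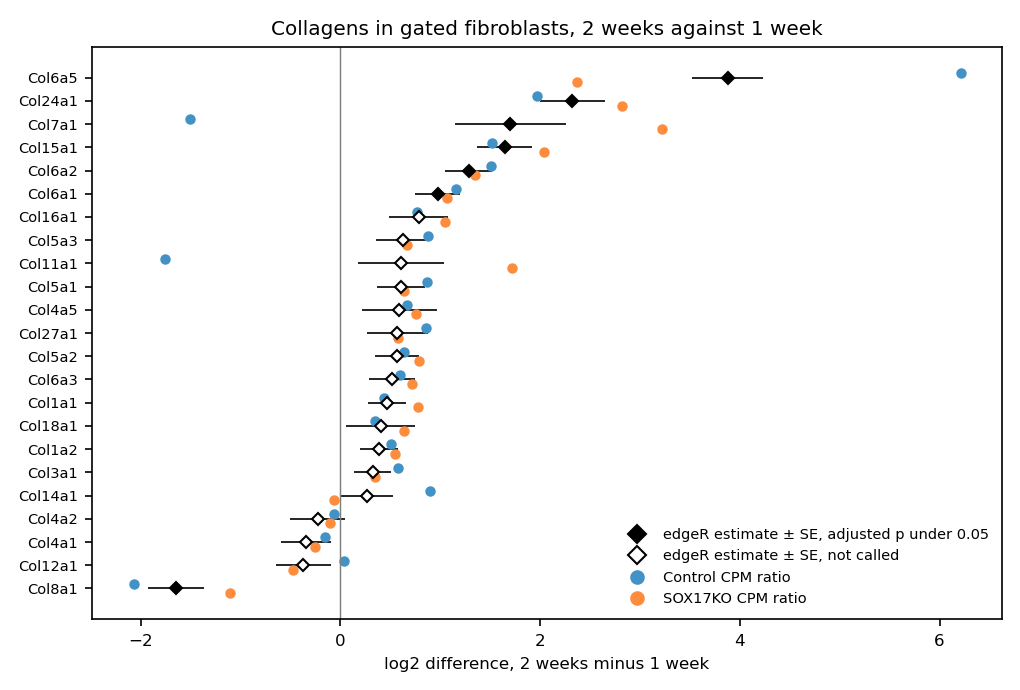
Log2 difference in fibroblasts, 2 weeks minus 1 week (horizontal axis), for the 23 collagens tested: diamonds are edgeR estimates with their SE, filled where the adjusted p is under 0.05, and circles are the CPM ratios within Control and within SOX17KO. The circles lie on both sides of 0 for Col7a1, Col11a1, Col12a1 and Col14a1, and Col8a1 lies below 0 in both genotypes.

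Partner genes changed in both directions, beside 3.61% of all genes called higher and 6.53% called lower. Of the breakdown list Mmp2 (0.96 ± 0.27, adjusted p = 0.00775), Mrc2 (0.95, adjusted p = 0.0155) and Mmp14 (0.81, adjusted p = 0.0178) rose, 3 of 6 tested, and none fell. Mmp2 was at 231.2 and 246.9 CPM at 1 week and 567.4 and 465.3 at 2 weeks. On the trimming and cross-linking list 1 of 10 rose, the procollagen N-proteinase Adamts3 (1.72, adjusted p = 0.00178). Of the folding list 1 of 17 changed, Ppib, which fell (-0.74, adjusted p = 0.0382), and Serpinh1 did not pass (-0.19, adjusted p = 0.69). Of the receptors 1 of 6 rose, the integrin chain Itga11 (2.31 ± 0.69, edgeR adjusted p = 0.013), from 3.438 and 5.192 CPM to 27.28 and 23.59. In the 2-week Control fibroblasts 1 UMI stood for 5.456 CPM, so these Itga11 levels rest on few UMIs. Of 12 tested matrix partners fibronectin, Fn1, rose (1.23, edgeR adjusted p = 3.9e-06), and Tnc (-2.24, adjusted p = 7.72e-14), Vcan and Thbs2 were called lower. Tnc went from 1079 and 839.3 CPM (Control, SOX17KO) to 251 and 195.1. Vcan was level in Control (593.9 and 594.7 CPM) and went from 886.6 to 405.2 in SOX17KO. Thbs2 went from 546.6 to 196.4 CPM in Control and from 286.1 to 255.2 in SOX17KO. Of the 10 activation genes 4 were called lower and none higher. Among them were the contractile genes Acta2 (-1.20, edgeR adjusted p = 0.00405) and Tagln (-1.68, adjusted p = 7.96e-05) and the collagen-associated Cthrc1 (-0.96, adjusted p = 0.0241). Their falls were mostly in Control. Acta2 went from 331.7 to 54.56 CPM in Control and from 154.6 to 143.7 in SOX17KO. Tagln went from 286.2 to 27.28 and from 99.22 to 68.61 CPM, and Cthrc1 from 325.7 to 98.2 and from 140.8 to 128.6. Fn1 and Vcan are also on the monocyte list that keeps cells out of the fibroblast gate.

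Over all kept cells 6 of 33 collagens were called between the weeks, where 35.1% of 15708 genes were. Col6a5 (3.31 ± 0.29, adjusted p = 0.00349) and Col6a6 (1.38 ± 0.35, adjusted p = 0.0342) were higher at 2 weeks. Col8a1 (-1.83 ± 0.26, adjusted p = 0.00877), Col12a1 (-0.94 ± 0.17, adjusted p = 0.0151), Col4a1 (-1.11 ± 0.31, adjusted p = 0.0424) and Col4a2 (-1.11 ± 0.31, adjusted p = 0.0445) were lower. Col4a1 and Col4a2 were not called without the genotype block (adjusted p = 0.0797 and 0.0885) or without doublet removal (0.0671 and 0.0766), and Col6a6 was not called with DESeq2 (adjusted p = 0.122). Col4a1 and Col4a2 were at 63.68 and 31.94 CPM in 1 week Control, 57.64 and 30.19 in 1 week SOX17KO, 23.9 and 12.05 in 2 weeks Control, and 50.96 and 26.59 in 2 weeks SOX17KO, so the difference was larger between the Control libraries. Gated fibroblasts were 1.545% and 1.997% of cells at 1 week and 0.4799% and 1.33% at 2 weeks, and T cells were 1.488% and 1.793% at 1 week and 41.03% and 23.32% at 2 weeks (Control, SOX17KO); the part of either in these changes was not tested. In macrophages 0 of 3 collagens were called between weeks, where 3.18% of 10609 genes were; Col14a1 had an unadjusted p of 0.00435.

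Across the 49 sums of a class in a library with at least 20 cells, the collagens most like Col1a1 by Spearman correlation of CPM were Col6a1 (0.608), Col1a2 (0.594), Col18a1 (0.591), Col28a1 (0.573) and Col27a1 (0.545). The sums of a library share its cells, depth and free RNA, most values are near 0 outside fibroblasts, and the correlations are a description only.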

How the data were processed

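The deposited matrices hold raw UMI counts per gene and barcode, made by the authors with Cell Ranger 6.0.1 per the submitters' processing notes (7.0.1 per the file headers) on mm10; the intron and strand settings are not given in the sources used here. Barcodes with at least 200 genes and at most 10% mitochondrial UMIs were kept, and the highest scrublet scores (scanpy 1.11.5), 0.8% per 1000 barcodes, were removed as doublets. A class needed at least 3 of its 8 markers and a clear lead over the other lists. Counts were summed per library and class, for at least 20 cells, and tested with edgeR 4.0.16 (quasi-likelihood, TMM, filterByExpr, Benjamini-Hochberg over all genes tested, threshold 0.05), with library, collection or genotype as a block. DESeq2 1.42.0, no filter, no block, other gates, no doublet removal, a 5% mitochondrial maximum and leaving out collections were alternatives. Each group is 1 library of pooled mice, and p-values cover no more than the spread between libraries. The edgeR test shares its estimate of spread across genes. With 1 residual degree of freedom, as in fibroblasts by genotype or week, a gene's own disagreement between libraries has little weight in its p. Collection labels pair the genotypes, since both libraries of a pair carry the same one. Intervals (95%) and floors of 3 counts cover counting error only. Gene positions are from GENCODE M21 (mm10), and 15 of 44 collagens have another gene model on the same strand within their span. Members and lists were chosen with earlier results of these data known. Named were the 15 highest collagens of fibroblasts, up to 5 called per immune class, those called by genotype or week (otherwise the 3 lowest p), up to 4 leading partner genes per list and those called, and the 5 collagens most like Col1a1; Col14a1 and Col19a1 in immune cells, Col18a1 in T cells and minor chains were named after their values were seen. The edgeR fits were tested on simulated data.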

Additional observations from a re-analysis of the deposited data

Results flagged for a closer look

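In fibroblasts the genotype ratios of 2 fibrillar genes had opposite signs at the weeks, as had those of 9 of the 23 collagens tested. Col3a1 had a SOX17KO minus Control log2 ratio of CPM of 0.141 at 1 week and -0.0885 at 2 weeks, and Col1a1 of -0.17 and 0.174. Each value compares 1 library with 1 other, neither gene was called between genotypes (0.05 ± 0.19 and 0.02 ± 0.19, edgeR adjusted p = 0.999 for both), and the difference between weeks was not tested. The mixed cells, which were in no gated class and entered tests only within the sums over all kept cells, had collagens at 2.65% of their UMIs, against 0.00203% in T cells.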

How the results depend on the processing

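The 21 collagens called higher in fibroblasts than in macrophages were 20 to 31 under all alternatives run, and the genotype comparisons called 0 under each. Over the immune classes 4 calls were higher and 1 lower; without an expression filter these were 11 and 15. The lower calls were 2 with DESeq2, 2 with the monocyte list lacking Fn1, Vcan and Plac8 (chosen after seeing the data), 0 with a gate of 4 markers and 1 to 3 when a collection was left out. With no replicate block they were 2, and the lower calls between weeks fell from 5 to 3; the block changed no other count by over 1.5 times. Between weeks, over 3 comparisons, the 8 higher calls were 5 with DESeq2, and the 5 lower calls were 12 without a filter and 3 without doublet removal. Under DESeq2 Col6a5 was not called in fibroblasts (adjusted p = 0.0736), and Col7a1 was not called with no block (adjusted p = 0.122) or no filter (adjusted p = 0.0698). Over all cells Col4a1 and Col4a2 were not called with no block (adjusted p = 0.0797 and 0.0885) or without doublet removal (0.0671 and 0.0766). No named result reversed over 436 alternatives of 48 results; 423 kept their side of the threshold. Fibroblasts in a library fell under 20 with a gate of 4 markers or a 5% mitochondrial maximum, so their week comparison was not run there. No collection could be left out of the week comparison. Collagens with too few UMIs to pass the expression filter were not tested.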
